A study of Mus musculus with 26 samples.

Results

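The genes described here encode 4 families of proteins that work on pre-mRNA: the SR splicing factors (Srsf), the heterogeneous nuclear ribonucleoproteins (Hnrnp), the proteins of the small nuclear ribonucleoproteins or snRNPs (Snrp) and the subunits of splicing factor 3 (Sf3). Members were all protein-coding genes whose symbol begins with Srsf, Hnrnp, Snrp or Sf3 followed by a letter or a number. The rule used no measured value. It gave 52 of the 45318 genes in the RNA-seq count files: 11 Srsf, 20 Hnrnp, 12 Snrp and 9 Sf3 genes. Another 4 genes with such symbols are not protein-coding and were not members. Srsf12 had 1 count in all libraries together and did not pass the filter on low counts, so 51 members were among the 15023 genes tested.

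The study deleted the start of MaTAR25, a nuclear long noncoding RNA gene, in 4T1 cells, a mammary tumor line of BALB/c mice, to ask what the RNA does there. Polyadenylated RNA was sequenced in 2 libraries of control cells (genotype labelled wild type, given an sgRNA against Renilla luciferase) and in 3 libraries of KO1 and 4 of KO2 (both labelled MaTAR25-/-). KO1 and KO2 each are 1 clone grown from a single sorted cell after transfection with a pair of sgRNAs, and all cells were grown in DMEM with serum without a further treatment. The labels do not say whether libraries of a group came from separate cultures or how many clones the control libraries represent, so p-values measure the spread between these libraries, which may be technical. A second assay, ChIRP-seq, listed the chromatin regions pulled down with oligos against MaTAR25 in wild type 4T1 cells and in NDL mammary tumor cells. The sources differ on the latter: the labels give primary NDL cells of FVB mice with the genotype MMTV-PyMT, and the study names the list for its cNeu line (MMTV-Neu-NDL).

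Introns are removed by the spliceosome, which is built anew on each intron from snRNPs. Every major spliceosomal snRNP except U6 carries a ring of Sm proteins around its RNA, the Sf3 proteins belong to the U2 snRNP that marks the branch point, and U1 and U2 carry a few proteins of their own. SR proteins bind exons and mostly promote the use of nearby splice sites, while hnRNPs coat pre-mRNA and often act against inclusion. Splicing factor levels shape isoform choice in tumors, and several of these genes are regulated through their own splicing.

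The libraries held 25367211 to 61110585 reads counted on genes. The MaTAR25 gene had 35 and 30 counts in control, 2, 7 and 0 in KO1 and 11, 1, 9 and 6 in KO2. Epithelial markers (Epcam, Cdh1, Krt7, Krt8, Krt18 and Krt19, 6 of 6) were at 80.2 CPM or more in every library, CPM being counts scaled to a common library size with TMM. Their sum was 3719 and 3902 CPM in control, 5053 to 7330 in KO1 and 2194 to 4532 in KO2. Krt7 had means of 789 CPM in control, 2935 in KO1 and 934 in KO2, while Cdh1 had 849, 637 and 471. Of 4 fibroblast markers, Dcn, Lum and Col3a1 had no counts and Pdgfra had a mean of 19.7 CPM in control, 29.6 in KO1 and 29.5 in KO2 (11.7 to 46.9 over the libraries), and endothelial and adipocyte lists summed to at most 1.68 and 0.136 CPM. The leukocyte list summed to 3.23 to 4.30 CPM in control, 11.6 to 28.5 in KO1 and 2.06 to 20.4 in KO2, nearly all of it Cd68, while Ptprc did not exceed 0.905 CPM and Cd3e had 1 count in all. Pairs of libraries correlated across genes at r = 0.996 in control, 0.987 to 0.991 in KO1 and 0.960 to 0.979 in KO2 (log2 of CPM plus 1). The part these differences play in the results below was not tested.

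The promoters of 4 genes that rose in both clones and of Srsf5, the gene that fell in both, are shown because members differed in the motifs they hold. Each runs from 250 bases before to 50 bases after the RefSeq start site, read in the direction of the gene, and capitals mark the motifs that were found: the CCAAT box (CCAAT), the GC box (GGGCGG), an ETS motif (CCGGAAG), an NRF1 motif (GCGCA and GCGC with any base between them) and the TATA box (TATAAA), on either strand.
Snrpd2 (GRCm38.p6 chr7:19149588-19149887, plus strand): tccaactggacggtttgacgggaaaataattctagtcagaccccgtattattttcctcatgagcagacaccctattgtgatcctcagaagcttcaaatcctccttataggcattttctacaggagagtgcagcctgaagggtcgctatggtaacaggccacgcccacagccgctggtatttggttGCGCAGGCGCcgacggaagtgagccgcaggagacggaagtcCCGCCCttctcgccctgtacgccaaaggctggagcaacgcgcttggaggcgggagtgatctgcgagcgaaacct
Snrpd3 (GRCm38.p6 chr10:75517792-75518091, plus strand): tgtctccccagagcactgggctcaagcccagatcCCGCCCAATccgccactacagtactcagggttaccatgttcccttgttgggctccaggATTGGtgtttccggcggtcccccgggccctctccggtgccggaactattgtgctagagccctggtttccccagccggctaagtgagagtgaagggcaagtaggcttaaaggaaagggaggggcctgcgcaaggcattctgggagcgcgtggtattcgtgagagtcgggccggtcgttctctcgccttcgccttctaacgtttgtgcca
Snrpg (GRCm38.p6 chr6:86371290-86371589, plus strand): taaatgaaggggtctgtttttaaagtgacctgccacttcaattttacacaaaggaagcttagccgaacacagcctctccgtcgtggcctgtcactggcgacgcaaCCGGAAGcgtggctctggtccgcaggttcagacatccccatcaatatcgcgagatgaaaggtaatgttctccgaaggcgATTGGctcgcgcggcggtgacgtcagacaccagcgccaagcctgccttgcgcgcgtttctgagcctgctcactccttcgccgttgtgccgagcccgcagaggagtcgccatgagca
Hnrnpab (GRCm38.p6 chr11:51606832-51607131, minus strand): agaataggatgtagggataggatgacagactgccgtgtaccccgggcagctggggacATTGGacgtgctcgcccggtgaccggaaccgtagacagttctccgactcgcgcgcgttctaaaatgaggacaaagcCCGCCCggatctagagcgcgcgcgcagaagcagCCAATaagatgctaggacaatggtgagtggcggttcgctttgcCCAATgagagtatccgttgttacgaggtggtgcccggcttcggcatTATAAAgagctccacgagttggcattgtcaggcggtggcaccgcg
Srsf5 (GRCm38.p6 chr12:80945249-80945548, plus strand): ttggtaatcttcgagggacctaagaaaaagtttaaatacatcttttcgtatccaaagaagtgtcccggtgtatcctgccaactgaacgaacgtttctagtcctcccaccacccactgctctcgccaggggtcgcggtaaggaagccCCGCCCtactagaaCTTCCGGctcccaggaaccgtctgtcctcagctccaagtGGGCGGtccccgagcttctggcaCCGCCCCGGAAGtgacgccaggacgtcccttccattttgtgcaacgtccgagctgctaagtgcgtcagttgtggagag

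The Snrpd3 window holds CCAAT boxes that begin 212 and 158 bases before the start site, the first of them overlapping a GC box. Hnrnpab holds CCAAT boxes 193, 84 and 41 bases before the start site and a TATA box that begins 5 bases after it. Snrpd2 holds the NRF1 motif 65 bases before the start site and no CCAAT box, and Snrpg holds an ETS motif and a CCAAT box. Srsf5 holds ETS motifs 90 and 23 bases before the start site, the nearer one overlapping a GC box, and no CCAAT box. RefSeq gave 63 promoters for 46 of the 52 members. Of these 63 promoters, 33.3% held the ETS motif against 8.86% of all 32851 promoters of the same length, and 17.5% held the NRF1 motif against 4.603%. The GC box was in 68.3% against 35.7%, an E2F motif (TTCCCGCC) in 14.3% against 2.19%, and the E-box (CACGTG) in 11.1% against 7.15%. A YY1 motif (AAGATGGC) was in 3.17% against 2.75% and the TATA box in 11.1% against 13.6%. The 32851 promoters belong to 27025 genes, expressed in these cells or not. No comparison with promoters of expressed genes alone was made, so these shares do not set the members apart from other expressed genes. The CCAAT box was in 44.4% of the members' promoters and in 37.4% of all promoters, in 11 of the 15 promoters of members that rose, and in 4 of the 14 Srsf promoters. The share of CCAAT boxes among the members that rose was noticed after their values were known and no test was made of it. A match describes these letters in this window and is not a binding site that was measured.

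In control cells the members spanned a wide range of levels, compared between genes per kb of exon. The highest level was that of Hnrnpa1, an hnRNP that also shuttles mRNA to the cytoplasm, at 227 ± 21.8 CPM per kb (SD, n = 2). Hnrnpa2b1 followed at 195 ± 4.69 CPM per kb, then Snrpb, which encodes the Sm proteins B and B′, at 149.6 ± 7.996. Hnrnph1 and Hnrnpab came next at 124 ± 9.49 and 123 ± 5.21 CPM per kb and differed by less than their SDs. The highest Srsf level was that of Srsf5 at 99.5 ± 3.20 CPM per kb and the highest Sf3 level that of Sf3b2 at 53.1 ± 0.379. The lowest tested member was Snrpn, the tissue-restricted relative of Snrpb, at 2.56 ± 0.934 CPM per kb. The family medians were 58.4 CPM per kb for Srsf, 52.4 for Hnrnp, 29.3 for Sf3 and 18.7 for Snrp. In the plot of levels per kb the Sm ring genes Snrpd1, Snrpd2, Snrpd3 and Snrpg lie above their control level in both clones, as do Sf3b5 and Hnrnpd.

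**Figure D1:**
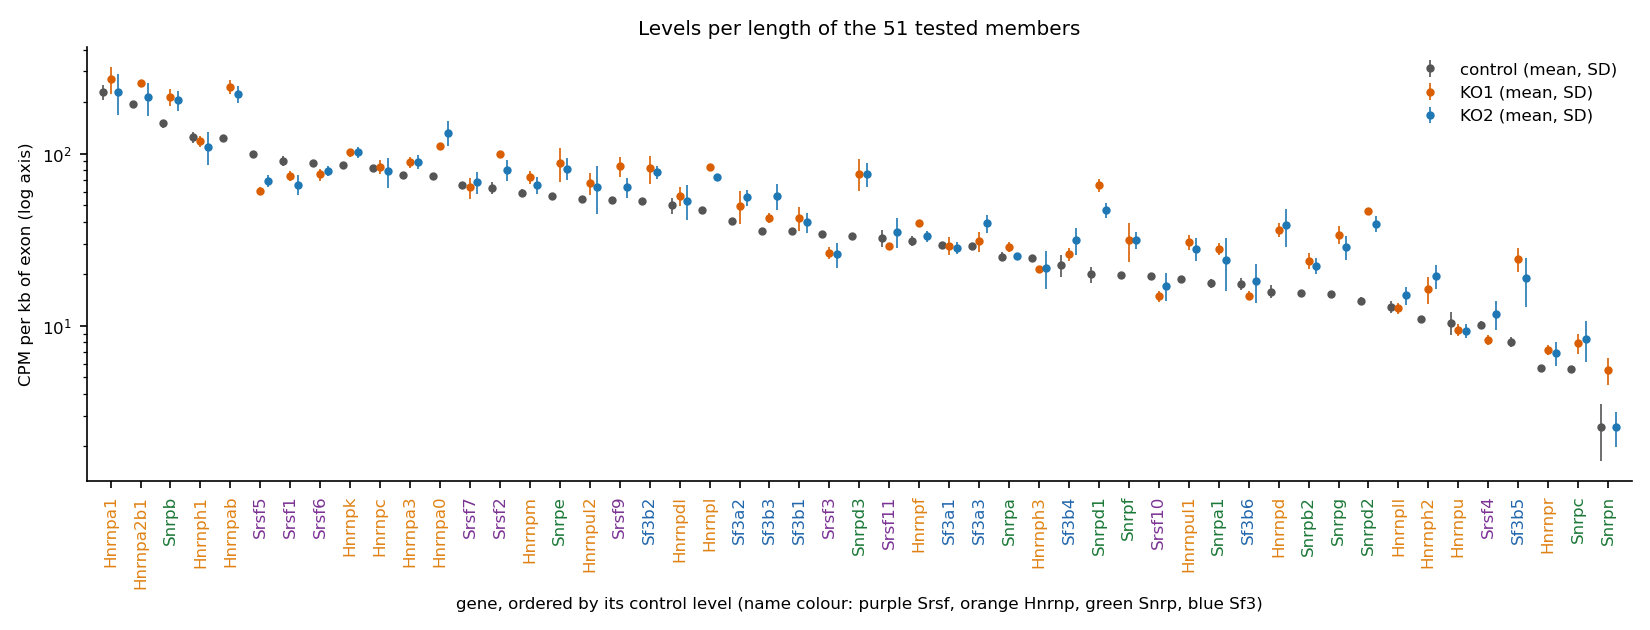
Level of each tested member in CPM per kb of exon on a log axis, for control (n = 2), KO1 (n = 3) and KO2 (n = 4), as mean with SD, genes ordered by their control level. The control levels run from 227 (Hnrnpa1) down to 2.56 (Snrpn), and Snrpd1, Snrpd2 and Snrpd3 lie above their control level in both clones by more than the SDs.

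In the KO libraries most genes of the Sm ring rose, 6 of 20 Hnrnp genes rose and 2 of 10 Srsf genes were called, the last a share near that of all genes. A gene was called where the edgeR quasi-likelihood test gave a Benjamini-Hochberg adjusted p under 0.1 over all genes tested. In KO against control, with the 7 KO libraries as 1 group, 17 members rose and 1 fell, which is 18 of 51 (35.3%), while 22.6% of all genes tested were called (11.9% higher, 10.7% lower). In KO1 against control, 19 members rose and 1 fell, where 31.6% of all genes were called (15.9% higher, 15.7% lower). In KO2 against control, 18 rose and 2 fell, where 31.4% of all genes were called (16.5% higher, 15.0% lower). The share of members that rose was above that of all genes in each comparison and the share that fell was below it. With library totals in place of TMM, the split was 14 higher and 3 lower in KO, 17 and 4 in KO1 and 15 and 3 in KO2. The members called higher were then 27.5%, 33.3% and 29.4%. Of all genes, 9.67% were then called higher and 13.3% lower in KO, 13.5% and 18.6% in KO1, and 13.6% and 18.2% in KO2. These are bulk libraries, in which less RNA per cell and fewer cells that express a gene cannot be told apart.

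Counted another way, the values of KO lay wholly outside those of control for 26 of 51 members, 22 of them higher and 4 lower, where 34.4% of all genes did (16.9% higher, 17.6% lower). With fewer libraries, KO1 and control were apart for 40 members (66.9% of all genes) and KO2 and control for 29 (46.9%). The median log2 fold change of the members was 0.29 in KO, 0.30 in KO1 and 0.25 in KO2, against 0.055, 0.021 and 0.034 over all genes. The members' summed level was 12128 and 11668 CPM in control. KO1 had 13735, 14608 and 15345 CPM, and KO2 had 14334, 14823, 13806 and 12748. All 7 KO libraries lay above both control libraries, with KO2 replicate 4 the nearest to them. The 2 control libraries carry much of the test: without control replicate 1 only 5 of the 18 calls in KO were made, without control replicate 2 only 4, and Snrpd1, Snrpd2, Snrpd3 and Hnrnpab were called under each of the 16 alternatives tried for the fit.

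**Figure D2:**
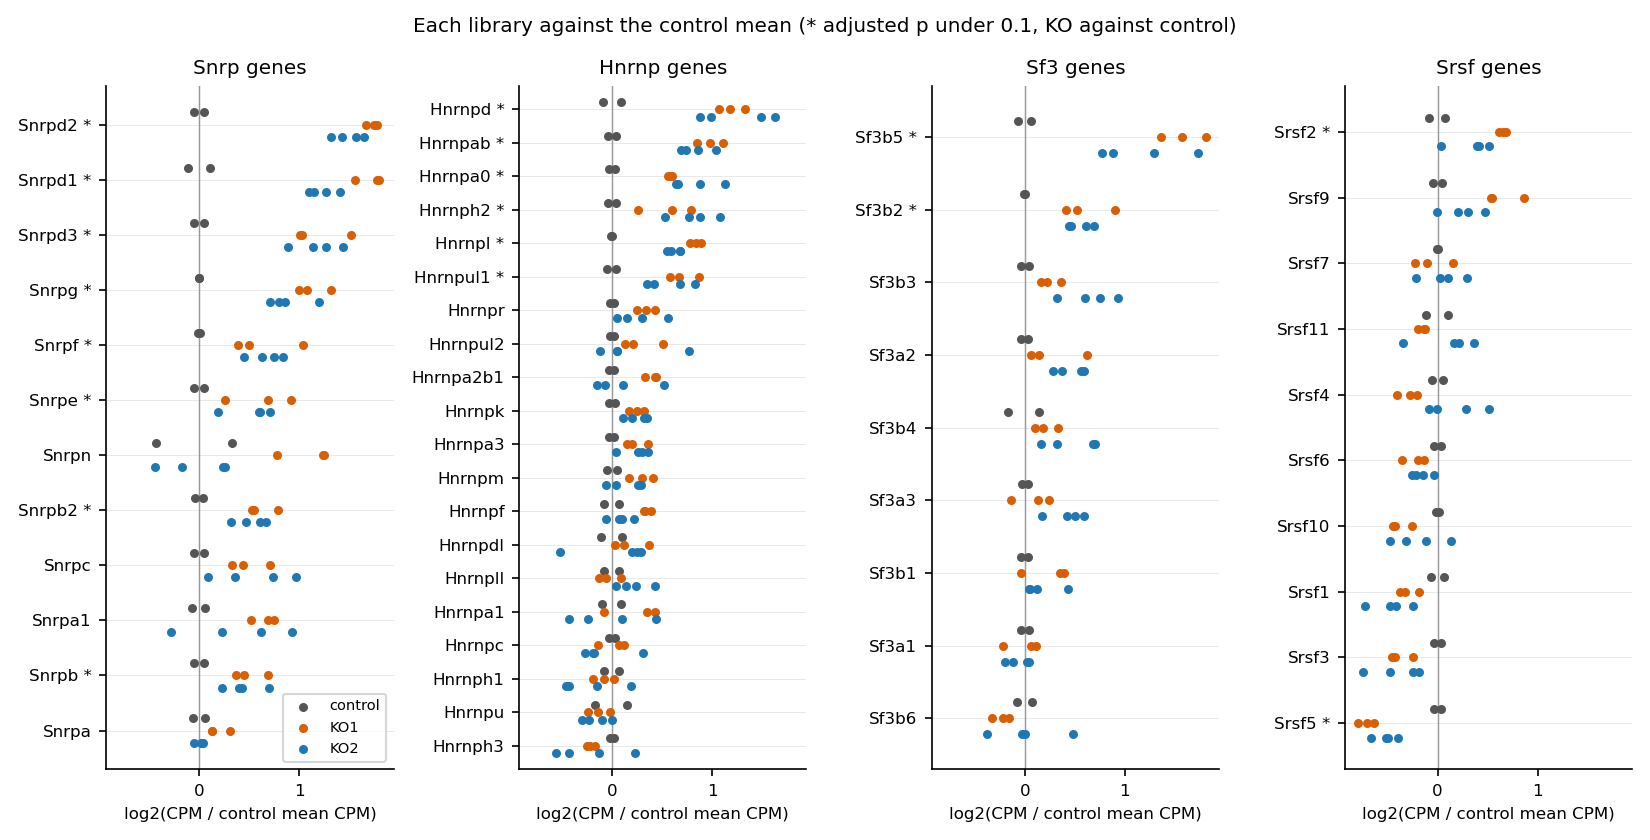
Each point is 1 library, as log2 of its CPM over the mean CPM of the 2 control libraries, for the 51 tested members by family (grey control, orange KO1, blue KO2). In the Snrp panel the 3 KO1 libraries lie right of the control mean for all 12 genes. In the Srsf panel the fitted change was under 0 for 8 of 10 genes in KO1 and for 5 of 10 in KO2.

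The Sm ring genes were called more often than any of the 4 families as a whole. They encode the small proteins that close around the snRNA of U1, U2, U4 and U5 and that are needed for snRNP maturation. Of 8 such genes, 7 rose in KO against control, 8 in KO1 and 7 in KO2, and none fell. Of all genes, 11.9%, 15.9% and 16.5% were called higher. With library totals in place of TMM, 5 of the 8 ring genes rose in KO, 7 in KO1 and 5 in KO2. Of all genes, 9.67%, 13.5% and 13.6% were then called higher. Their summed level was 606 and 615 CPM in control. KO1 had 1064, 1071 and 1322 CPM, and KO2 had 1146, 1070.1, 1067 and 926. The lowest KO library was thus 1.51 times the higher control library.

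Snrpd2, which encodes SmD2, had 35.1 and 37.6 CPM in control, 116, 125 and 122 in KO1, and 114, 90.5, 108 and 97.8 in KO2. The groups did not overlap, and the gene rose 3.33-fold in KO1 and 2.82-fold in KO2 (log2 fold change 1.73 ± 0.16 and 1.496 ± 0.15, SE, adjusted p = 0.000614 and 0.000621). Its partner Snrpd1 (SmD1) had 43.9 and 37.8 CPM in control, 141, 120.4 and 143 in KO1, and 90.4, 109, 98.4 and 87.2 in KO2. All KO libraries were above control and all KO1 libraries above all KO2 libraries, with a rise of 3.29-fold in KO1 (adjusted p = 0.000751) and 2.35-fold in KO2 (adjusted p = 0.00165). Snrpd3 (SmD3), which pairs with the B protein in the ring, had 118 and 110.0 CPM in control, 232, 229.8 and 327 in KO1, and 251, 308, 274 and 211 in KO2. It rose 2.31-fold in KO1 and 2.29-fold in KO2 (adjusted p = 0.00524 and 0.00483), with no overlap between KO and control.

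Snrpg (SmG) had 24.1 CPM in each library of control, 48.3, 50.8 and 60.1 in KO1, and 55.5, 42.0, 43.6 and 39.3 in KO2. It rose 2.20-fold in KO1 and 1.87-fold in KO2 (adjusted p = 0.0047 and 0.010), again without overlap. Snrpb had 284 and 307 CPM in control, 404, 383 and 475 in KO1, and 478, 397, 388 and 346 in KO2. The rise of Snrpb was smaller, 1.42-fold and 1.36-fold (adjusted p = 0.0591 and 0.0789). Snrpe (SmE) and Snrpf (SmF), which form the rest of the ring with Snrpg, rose 1.50-fold and 1.59-fold in KO (adjusted p = 0.0791 and 0.061). Snrpb, Snrpe and Snrpf lost their call in KO against control under 4 or more of the 16 alternatives. Of the exon bases of Snrpf, 65.9% overlap Ccdc38 on the opposite strand, and no source used here says whether the counting used the strand.

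Snrpn was the ring gene that was not called in KO2. It had 4.10 and 6.96 CPM in control, 9.497, 13.1 and 13.01 in KO1, and 4.91, 6.61, 6.54 and 4.07 in KO2. The KO1 libraries lay above all the others, and the KO2 libraries spread around the control values. It rose 2.15-fold in KO1 (adjusted p = 0.0507), while the log2 fold change in KO2 was 0.00040 ± 0.33 (SE). Of its exon bases, 27.3% are shared with Gm38393 and 10.0% with Snurf on the same strand, so its counts are uncertain.

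Of the 4 genes for proteins particular to U1 or U2, 1 was called in KO. Snrpb2, the U2 protein B″, had 45.5 and 42.9 CPM in control, 64.7, 63.8 and 76.5 in KO1, and 70.3, 61.02, 67.6 and 55.1 in KO2, and rose 1.48-fold in KO (adjusted p = 0.0357). Snrpa (the U1 A protein), Snrpc (U1 C) and Snrpa1 (U2 A′) were not called in any comparison, with log2 fold changes in KO of 0.091 ± 0.14, 0.55 ± 0.23 and 0.54 ± 0.28 (SE). KO2 replicate 4 had 46.1 CPM of Snrpa1, under both control libraries at 53.6 and 58.6.

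Among the Sf3 genes, 2 of 9 rose in KO, 2 in KO1 and 4 in KO2, and none fell. The shares called of 22.2%, 22.2% and 44.4% compare with 22.6%, 31.6% and 31.4% of all genes, so in KO and KO1 they were near or under the background. All these calls were rises, and 11.9%, 15.9% and 16.5% of all genes were called higher. Sf3b5, a small subunit of SF3b, had 29.5 and 32.5 CPM in control, 91.8, 79.6 and 109 in KO1, and 57.2, 76.1, 103 and 53.1 in KO2. It rose 3.02-fold in KO1 and 2.33-fold in KO2 (adjusted p = 0.0060 and 0.0141), and KO2 replicates 1 and 4 were the lowest of the KO libraries. Sf3b2, which contacts pre-mRNA near the branch point, had 364 and 361 CPM in control, 482, 678 and 521 in KO1, and 499.997, 587, 491 and 555 in KO2, and rose 1.50-fold in KO (adjusted p = 0.0322). Sf3b3 had 379 and 400.0 CPM in control, 499.985, 436 and 454 in KO1, and 656, 744, 488 and 591 in KO2.

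The call for Sf3b3 was made in KO2 (1.59-fold, adjusted p = 0.0244) and not in KO1 (1.19-fold, adjusted p = 0.346), but the difference between the clones did not pass the test (log2 0.42 ± 0.15, SE, adjusted p = 0.102). Sf3a3, of the SF3a part, was likewise called in KO2 (1.35-fold, adjusted p = 0.0932) and not in KO1 (1.06-fold), and the clones did not differ past the threshold (adjusted p = 0.155). The Sf3a3 call was kept under 5 of the 16 alternatives. Sf3b1, the subunit that holds the branch point and is recurrently mutated in cancers, had 413 and 394 CPM in control, 393 to 530.3 in KO1 and 415 to 543 in KO2, and was not called. Sf3a2 (adjusted p = 0.173), Sf3a1, Sf3b4 and Sf3b6 were not called in KO either.

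Of the 20 Hnrnp genes, 6 rose in KO against control, the same number in each clone, and none fell. The 30.0% called higher compares with 11.9% of all genes in KO, 15.9% in KO1 and 16.5% in KO2. Counted in both directions, 22.6%, 31.6% and 31.4% of all genes were called, so by that measure the family was near the background in each clone. The family median was a log2 fold change of 0.25 in KO, 0.30 in KO1 and 0.23 in KO2. Hnrnpd, also known as AUF1 and a binder of AU-rich elements, had 123 and 109 CPM in control, 243, 263 and 292 in KO1, and 325, 358, 229.8 and 214 in KO2. It rose 2.29-fold in KO1 and 2.43-fold in KO2 (adjusted p = 0.00836 and 0.00555), without overlap. Hnrnpab, a relative of Hnrnpd that binds RNA and single-stranded DNA, had 354 and 333 CPM in control, 679, 619 and 743 in KO1, and 623, 575, 708 and 553 in KO2. It rose 1.98-fold in KO1 and 1.79-fold in KO2 (adjusted p = 0.00338 and 0.00541), and its libraries did not overlap. Of its exon bases, 29.1% overlap Phykpl on the opposite strand.

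Hnrnpl, which binds CA repeats, had 281 and 279 CPM in control, 480.5, 521 and 500.3 in KO1, and 448, 422, 448 and 410.1 in KO2. It rose 1.79-fold in KO1 and 1.54-fold in KO2 (adjusted p = 0.0028 and 0.00735), and its spread within each group was small. Hnrnpa0, a single-exon relative of Hnrnpa1, had 201 and 193 CPM in control, 293, 292 and 299 in KO1, and 363, 307, 311 and 432 in KO2, and rose 1.49-fold and 1.79-fold (adjusted p = 0.0367 and 0.00782). Hnrnph2 and Hnrnpul1 completed the group, with rises of 1.65-fold and 1.56-fold in KO (adjusted p = 0.0434 and 0.0294).

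Hnrnpa1 and Hnrnpa2b1, the Hnrnp genes with the highest control levels per kb, were not among those called. Hnrnpa1 had 766 and 668 CPM in control, 678, 917 and 966 in KO1, and 771, 607, 972 and 534 in KO2. The groups of Hnrnpa1 overlapped, and its log2 fold changes of 0.25 ± 0.26 in KO1 and 0.0084 ± 0.24 in KO2 (SE) were within the error, the latter changing sign under 3 alternatives of the fit and without 3 of the 9 libraries. Hnrnpa2b1 had 1303 and 1259 CPM in control, 1612, 1738 and 1732 in KO1, and 1383, 1832, 1154 and 1225 in KO2, with a log2 fold change of 0.25 ± 0.19 in KO (SE). Hnrnph1, Hnrnpc, Hnrnph3 and Hnrnpu, the scaffold hnRNP of the nuclear matrix, had fitted values under 0 in KO that were not called, the farthest from 0 being Hnrnph3 at −0.20 ± 0.19. Hnrnpf, which binds G runs, had 99.6 and 90.03 CPM in control, 119, 119 and 125 in KO1, and 111, 102, 99.8 and 91.3 in KO2, and was not called (adjusted p = 0.103 in KO1).

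Counting is less certain for several of these genes because other places in the genome share their sequence. Of all 50-base windows of a gene's exons, the share found again elsewhere in GRCm38 was 82.5% for Hnrnpa3, 68.1% for Hnrnpf, 49.4% for Hnrnpa1, 48.7% for Sf3b4, and 32.3% for Hnrnph2 and Srsf10. It was 10.8% for Snrpd1, 8.30% for Snrpd2, 13.4% for Snrpg, 17.4% for Srsf5 and 0 for Snrpd3, Hnrnpa0 and Srsf1. Of the 14 tested members with at least 10% such windows, 5 were called in KO and their median log2 fold change was 0.23, against 13 of 37 and 0.39 for the others. The share of reads set aside as not unique was 24.1% in control, 25.2 to 26.1% in KO1 and 26.3 to 27.5% in KO2. Its part in the results was not tested.

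The Srsf genes had 1 rise and 1 fall among 10 tested in KO, 2 rises and 1 fall in KO1, and 2 falls in KO2. The shares called, 20.0%, 30.0% and 20.0%, were at or under the 22.6%, 31.6% and 31.4% of all genes. With library totals in place of TMM the calls were 3 falls in KO, 2 rises and 4 falls in KO1, and 3 falls in KO2. The shares called were then 30%, 60% and 30%, against 23%, 32% and 31.8% of all genes. Under this scaling the Srsf share was thus above that of all genes in KO and KO1. Their median log2 fold change was −0.090 in KO, −0.26 in KO1 and −0.050 in KO2. The family's summed level was 2600.5 and 2526 CPM in control, 2261, 2154 and 2412 in KO1, and 2459, 2383, 2262 and 2044 in KO2, so all KO libraries lay below both control libraries. Srsf5, a splicing factor that responds to growth signals, had 406 and 388 CPM in control, 243, 228 and 255 in KO1, and 250.01, 278, 301 and 282 in KO2. It fell to 0.61 of control in KO1 and 0.70 in KO2 (log2 fold change −0.71 ± 0.13 and −0.52 ± 0.13, SE, adjusted p = 0.0065 and 0.0184), with no overlap.

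Srsf2 (SC35), a marker of nuclear speckles, had 198 and 177 CPM in control, 294, 286 and 301 in KO1, and 247, 249, 268 and 192 in KO2. It rose 1.57-fold in KO1 (adjusted p = 0.0208), and in KO2, where replicate 4 lay within the control range, the change of 1.28-fold was not called (adjusted p = 0.133). The call for Srsf2 over both clones (adjusted p = 0.0968) was kept under 6 of the 16 alternatives. Of its exon bases, 15.6% overlap Mettl23 and 9.74% overlap Mfsd11 on the opposite strand. Srsf9 had 85.7 and 91.2 CPM in control, 161, 129 and 129 in KO1, and 109, 123, 102 and 88.0 in KO2, and rose 1.58-fold in KO1 (adjusted p = 0.029).

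Srsf1 (SF2/ASF), the best known oncogenic SR protein, had 542 and 493 CPM in control, 398, 414 and 455 in KO1, and 387, 437, 372 and 314 in KO2. All KO libraries lay below control, and the gene fell to 0.73 of control in KO2 (adjusted p = 0.0567) but was not called in KO1 (0.82, adjusted p = 0.215) or in KO (adjusted p = 0.11). Srsf3 had 278 and 263 CPM in control, 197, 202 and 228 in KO1, and 237, 195, 228 and 162 in KO2, again without overlap and without a call (log2 fold change −0.39 ± 0.15 in KO, SE, adjusted p = 0.123). Srsf4, Srsf6, Srsf7, Srsf10 and Srsf11 were not called against control in either clone.

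The calls of KO1 and KO2 were largely on the same members. In both clones 16 members rose (9.91% of all genes did) and 1 fell, Srsf5 (8.45% of all genes). The shared 17 are 85.0% of the 20 calls in KO1 and 85.0% of the 20 in KO2. Over all genes the calls were also largely shared: 1489 rose and 1269 fell in both clones, of 4750 called in KO1 and 4724 in KO2. Both clones were compared with the same 2 control libraries, so their fold changes share the error of these controls. Snrpn, Srsf2 and Srsf9 were called in KO1 alone and Sf3a3, Sf3b3 and Srsf1 in KO2 alone.

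**Figure D3:**
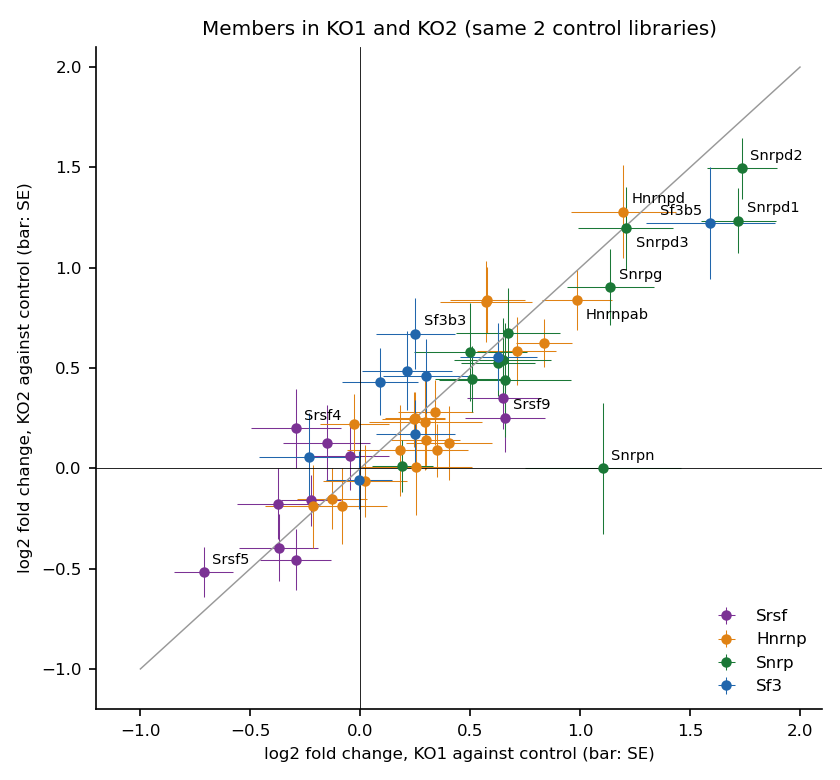
Log2 fold change of each tested member in KO1 (horizontal) and KO2 (vertical) against the same 2 control libraries, with SE bars, coloured by family, and the line of equal change. Most members lie near the line, Snrpn lies far below it (1.10 in KO1, 0.00040 in KO2), and Srsf5 lies lowest on both axes.

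Tested directly against each other, the clones differed for 3 members, where 19.6% of all genes differed (10.2% higher in KO2, 9.43% lower). Snrpd1 was lower in KO2 than in KO1 (log2 difference −0.48 ± 0.13, SE, adjusted p = 0.0466), although above control in both. Snrpn was lower in KO2 (−1.102 ± 0.28, adjusted p = 0.038). Srsf4 had 34.7 and 37.5 CPM in control, 29.8, 27.3 and 31.3 in KO1, and 51.7, 44.1, 34.1 and 35.99 in KO2, and was higher in KO2 than in KO1 (0.49 ± 0.17, adjusted p = 0.0963). Of the exon bases of Srsf4, 43.0% overlap Gm12992 on the opposite strand. Of the members called in 1 clone alone, Snrpn is the one whose difference between the clones passed the test, while Srsf9 (adjusted p = 0.106), Srsf2 (0.175), Sf3b3 (0.102), Sf3a3 (0.155) and Srsf1 (0.458) did not.

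The calls changed with the libraries kept, while the differences kept their sign, from −0.56 to −0.44 for Snrpd1, −1.24 to −0.98 for Snrpn and 0.37 to 0.58 for Srsf4 with 1 library left out. Without KO1 replicate 3 the edgeR test called 0 members, with 6 at an unadjusted p under 0.05, against 3 called and 7 at that p with all libraries, and DESeq2 called 3 with all libraries. Without KO1 replicate 1 or KO1 replicate 2 it called 1, and without KO2 replicate 3 it called 8. The KO and control groups of the other members can be read from the plot of each library against the control mean, where the KO2 points are the more widely spread.

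Length of the transcript moved with the change. Among 9096 protein-coding genes whose mean was 10 CPM or higher, the median log2 fold change in KO was 0.53 for the 428 genes with under 1500 bp of exon and −0.080 for the 3321 genes of 6000 bp or more, and 35.3% of the former were called higher against 10.2% of the latter. The Sm ring genes are short, from 861 bp of exon for Snrpf to 3442 bp for Snrpd3. Under 1500 bp, 2 members had a median of 0.63. Between 1500 and 2500 bp, 5 members had a median of 0.47 against 0.21 for all such genes. Between 2500 and 4000 bp, 18 members had a median of 0.34 against 0.13, and between 4000 and 6000 bp, 8 members had 0.051 against 0.056. From 6000 bp upward, 17 members had a median of 0.25 against −0.080. Members thus lay above genes of their length in 4 of the 5 classes, and the part of length in the result was not tested. Over all lengths, 17 of 50 members at this level were called higher and 1 lower, against 15.5% and 11.2% of the 9096 genes.

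**Figure D4:**
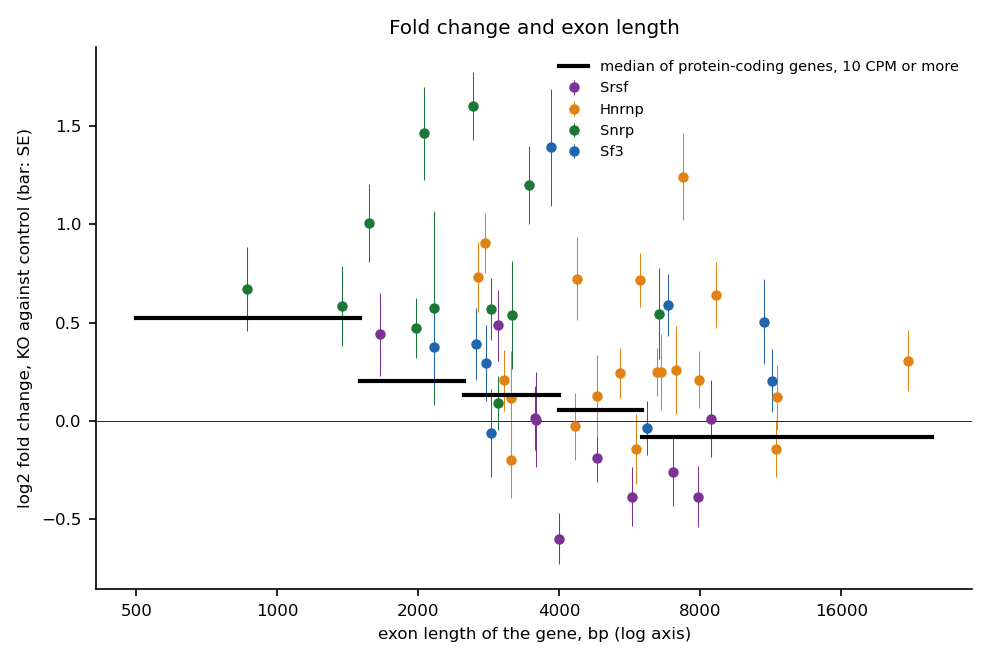
Log2 fold change in KO against control (points, with SE) of the 51 tested members by exon length in bp on a log axis, coloured by family. Black bars give the median of protein-coding genes of at least 10 CPM in 5 length classes, which descends from 0.53 to −0.080, with Snrpd2, Snrpd1, Snrpd3, Sf3b5 and Hnrnpd well above the bar of their class.

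Other genes of the splicing machinery were read from 9 lists with 123 genes, of which 122 were tested. In KO against control 31 rose and 11 fell, in KO1 39 rose and 19 fell, and in KO2 34 rose and 17 fell. These are 25.4% higher and 9.02% lower in KO, where all genes had 11.9% and 10.7%, 32.0% and 15.6% in KO1, where all genes had 15.9% and 15.7%, and 27.9% and 13.9% in KO2, where all genes had 16.5% and 15.0%. The split depended on scaling. Library totals in place of TMM gave 24 higher and 20 lower in KO, 34 and 21 in KO1 and 28 and 24 in KO2. These are 19.7% and 16.4% in KO, 27.9% and 17.2% in KO1, and 23% and 19.7% in KO2. The shares of all genes moved as well, to 9.67% higher and 13.3% lower in KO, 13.5% and 18.6% in KO1, and 13.6% and 18.2% in KO2. The median log2 fold change was 0.17 in KO, 0.19 in KO1 and 0.16 in KO2. The LSm proteins, which form rings like those of the Sm proteins around U6 and in mRNA decay, rose in KO for 7 of 7 genes, in KO1 for 7 and in KO2 for 6. Lsm3 had 15.5 and 15.7 CPM in control, 44.5, 45.8 and 58.6 in KO1, and 50.5, 39.6, 36.2 and 37.4 in KO2, with a log2 fold change of 1.52 ± 0.22 in KO (SE, adjusted p = 0.00319). Of the 11 genes for the assembly of the Sm ring on snRNA, 4 rose in KO and none fell, among them Gemin8 of the SMN complex (1.07 ± 0.27, adjusted p = 0.0251). With library totals in place of TMM, 2 of the 11 rose. Another of the 4, Gemin4, had 0.132 and 0.153 CPM in control and 0.253 to 1.24 in the KO libraries, so its call rests on few counts.

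Core factors outside the rings were mixed. For comparison, 22.6% of all genes were called in KO, 11.9% higher and 10.7% lower. With library totals in place of TMM, 9.67% were called higher and 13.3% lower. Of 22 proteins of U1, U5 and the tri-snRNP, 7 rose and 2 fell in KO, and Prpf31, which bridges U4 and U6 to U5, went from 34.0 and 33.4 CPM in control to 105, 104 and 105 in KO1 and 75.2, 80.6, 89.2 and 68.1 in KO2 (log2 fold change 1.41 ± 0.21 in KO, SE, adjusted p = 0.00366). Of 12 U2 auxiliary and branch-point factors 1 rose and 1 fell, the rise being U2af2, the reader of the polypyrimidine tract (0.88 ± 0.14, adjusted p = 0.00399). Of 18 genes of the Prp19 complex and the active spliceosome 4 rose (3 rose and 3 fell with library totals), with Ppil1 at 1.36 ± 0.23 (adjusted p = 0.00553), and of 9 late-step factors and helicases 3 rose, with Ddx41 at 0.81 ± 0.21 (adjusted p = 0.0268).

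Among the kinases, importers and relatives of the SR proteins no gene rose in KO. Of 9 tested SR protein kinases and importers none rose, and 2 fell in KO, 2 in KO1 and 4 in KO2. The shares called were 22.2%, 22.2% and 44.4%, against 22.6%, 31.6% and 31.4% of all genes, so in KO and KO1 the list was at or under the background. Clk1, a kinase that phosphorylates SR proteins in the nucleus, had 156 and 145 CPM in control, 64.5, 84.9 and 82.2 in KO1, and 65.4, 90.4, 75.5 and 78.5 in KO2, with a log2 fold change of −0.96 ± 0.15 in KO (SE, adjusted p = 0.0041). Of 9 SR-related proteins none rose in KO, and Tra2a and Tra2b fell, with Tra2b at −0.49 ± 0.13 (adjusted p = 0.0298). The share called was 22.2%, near the 22.6% of all genes. Of 25 other RNA-binding splicing regulators 5 rose and 4 fell in KO (36.0% called, against 22.6% of all genes). Esrp1, a regulator of epithelial splicing, had 519 and 508 CPM in control, 187, 211 and 167 in KO1, and 92.2, 80.2, 165 and 150.2 in KO2 (−1.77 ± 0.30, adjusted p = 0.00523).

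**Figure D5:**
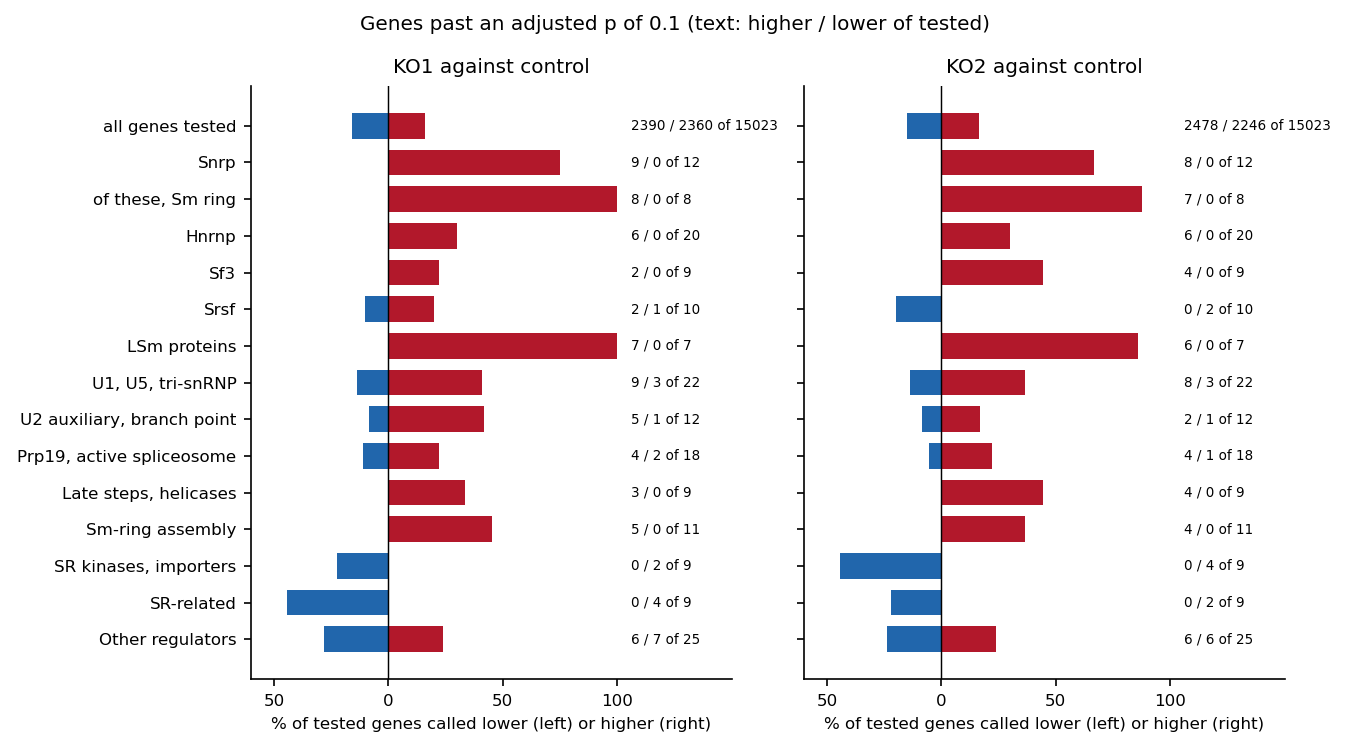
Share of tested genes called higher (red, right) or lower (blue, left) at an adjusted p under 0.1 in KO1 and KO2 against control, for all genes tested, the 4 families, the Sm ring and the 9 other lists, with the counts at the right of each bar. The Sm ring and the LSm proteins have the longest red bars (8 of 8 and 7 of 7 in KO1), while the lists of SR kinases and SR-related proteins have blue bars alone.

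In the ChIRP-seq lists, MaTAR25 pulldown peaks were not more frequent at members than at other genes. By the annotation of the deposited list, the total oligo pool in 4T1 cells gave at least 1 peak whose nearest promoter was that of a member for 25 of 51 members (49.0%, 95% Wilson interval 35.9 to 62.3%), against 59.6% of the 15023 genes tested. The interval covers counting error only, and the peaks were called on pooled replicates, so no test between replicates can be made. Peaks overlapped the gene body of 21 members (41.2%) against 51.2% of genes. With a score of at least 100, 13 members kept a peak (25.5%) against 26.1% of genes. The odd oligo pool in 4T1 cells gave a peak for 24 members (47.1%) against 52.4% of genes, and the total pool in NDL cells for 24 against 58.0% of genes.

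By family, 14 of 20 Hnrnp, 5 of 9 Sf3, 4 of 12 Snrp and 2 of 10 Srsf genes had a peak of the 4T1 total pool. Of the 17 members that rose in KO, 6 had a peak, and of the 33 members not called, 19 had one. Srsf5 had none. The highest-ranked member peak was at Hnrnpa3, at chr2:75662458-75665552 of GRCm38, annotated as intronic, with a score of 792 (rank 142 of 76806 peaks), and NDL cells had a peak there at rank 22 of 70329. Hnrnpa3 was not called in KO1 or KO2. Among members that rose, Sf3b2 had an exonic peak at chr19:5292973-5293597 (score 306, rank 2917) and Snrpb a peak at chr2:130156959-130157583 that lies between genes, 22032 bp from its start site (score 266, rank 3841). The 4T1 odd and even oligo pools differed at these places. For Sf3b2 the even pool alone had a peak (score 168). At the Snrpb place the odd pool alone had an overlapping peak assigned to the gene (score 762). The even pool had a weaker peak close by that did not overlap, at chr2:130156264-130156763 (score 25.1). In the even-pool list some peaks seem to stand under an exchanged chromosome name, so places in that list are less certain. At the Hnrnpa3 place both had 1, with scores of 817 (even) and 67.8 (odd). Snrpd1, Snrpd2, Snrpd3 and Snrpg had no peak of the 4T1 total pool assigned to them. In other lists Snrpd1 had odd-pool peaks in 4T1 cells (scores 44.8 and 33.9). Snrpd3 had a peak of the NDL total pool 200 bp from its start site (score 22.7).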

How the data were processed

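The deposited RNA-seq files hold whole-number counts per gene, which the authors made by mapping single-end reads to GRCm38 with STAR and counting on GENCODE vM5 with HTSeq, without normalization. No source used here says whether strand was used. In the file of KO2 replicate 2 every gene stands 3 times with equal counts, and 1 copy was kept. The deposited ChIRP-seq lists give HOMER peak scores over pooled replicates, called by the authors against the Ppib (cyclophilin B) pulldown. Records not assigned to a gene were left out (33.9 to 37.0% of a library's records). Most of these were records set aside as not unique, 24.1 to 27.5% of a library's records.

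Counts were tested in R 4.3.3 with edgeR 4.0.16 (TMM, filterByExpr, quasi-likelihood test, Benjamini-Hochberg over 15023 genes, threshold 0.1, as the study used with DESeq2). KO against control used a fit of 2 groups, and the clones a fit of 3 groups. Standard errors are the log2 fold change over the root of F. Symbols, exon lengths and overlaps come from GENCODE vM21 (44585 of 45318 genes matched) and promoters from RefSeq (GRCm38.p6). Per-kb levels use the union of exons, which isoforms lengthen. Python 3.11.15 was used for the rest. Members, lists and tests were chosen with earlier results of these data known. Genes named with full values were, per family, those with the 4 smallest adjusted p in KO, the 2 smallest between the clones and the highest control level, and per other list the smallest p. The other members are given by their calls, with values for those the text describes, chosen after the values were seen. Alternatives were DESeq2 1.42.0, RLE size factors, library totals without TMM, no filter, at least 10 counts in every library, a threshold of 0.05, a replicate block, other groups in the fit, and each library left out. Replicate numbers did not pair samples: same-numbered libraries of different groups had deviations correlated at −0.196 to 0.0558 (7 pairs).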

Additional observations from a re-analysis of the deposited data

Results flagged for a closer look

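The clones differed from each other at 3 members, by the test of KO2 against KO1 in the fit of 3 groups. The log2 difference was 0.49 for Srsf4 (KO1 27.3 to 31.3 CPM, KO2 34.1 to 51.7 CPM), −0.48 for Snrpd1 (KO1 120.4 to 143 CPM, KO2 87.2 to 109 CPM) and −1.102 for Snrpn (KO1 9.497 to 13.1 CPM, KO2 4.07 to 6.61 CPM). No KO2 library of Snrpd1, Snrpn or Srsf4 overlapped a KO1 library, as for 10 members in all and 24.5% of all genes tested. Dixon's ratio was computed in KO2, the group of 4 libraries, and not in the smaller groups, and no library of KO2 stood apart from the other 3 by it for the genes named.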

How the results depend on the processing

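Leaving out 1 library at a time gave 4 to 20 called members in KO against control, 9 to 25 in KO1, 7 to 22 in KO2 and 0 to 8 between the clones, and 5 to 49, 15 to 64, 10 to 55 and 1 to 31 of the other splicing genes. The low ends against control came from leaving out either control library, which leaves 1 control sample whose spread is assumed equal to that of the other groups. Between the clones, library totals without TMM gave 5 members, and the other splicing genes numbered 8 without a filter on low counts, 4 with only the groups compared and 4 at an adjusted p under 0.05. Of the 51 members 13 had a peak with a score of at least 100, against 25 with any. With only the groups compared, KO1 against control gave 30 members. The cause of these shifts was not tested.

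The replicate number as a block gave 13 called members in KO, 16 in KO1, 16 in KO2 and 1 between the clones, and 27 of the other splicing genes in KO and 2 between the clones. The numbers do not pair the libraries. The value of Hnrnpa1 in KO2, 0.0084 on the log2 scale, turned to −0.089 with library totals without TMM, −0.0079 without a filter and −0.020 with the block, and ran from −0.17 to 0.13 with 1 library left out (under 0 without control replicate 2, KO2 replicate 1 or KO2 replicate 3). No called member reversed under an alternative. Library totals without TMM moved the median of all genes by −0.10 in KO2 and the members' median stayed 0.21 above it, against 0.18 to 0.36 over all alternatives in KO2.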
